A study of Arabidopsis thaliana with 9 samples.

Results

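The comparison of Arabidopsis thaliana cells kept for 12 h with or without 5 µM estrogen used 6 of the 9 arrays of the series, 3 with estrogen and 3 without. The members were chosen by the treatment and time in the sample labels, and each estrogen array was set against the untreated array of the same replicate number. The remaining 3 arrays, from the same cells at 0 h, entered the shared estimate of the spread and the levels given beside some genes. They also gave the change with time in untreated cells, and entered the mean signals used to group and choose probe sets. All cells were of the suspension culture line Alex in the Col-O background, grown in the dark, and all, controls included, carried LHW and T5L1-GFP under estrogen-inducible control. No estrogen-treated cells lacking the inducible genes, and none carrying 1 of them, were among the samples, so effects of estrogen, of LHW and of T5L1 cannot be told apart.

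LHW (LONESOME HIGHWAY) is a basic helix-loop-helix transcription factor that forms a heterodimer with TMO5 and its relatives, of which T5L1 is one. In the root the heterodimer promotes the cell divisions that build up the vascular cylinder, in part by raising the synthesis of cytokinin, and it takes part in the start of xylem differentiation. Its activity is held in check by SACL proteins, basic helix-loop-helix factors of the SAC51 family that bind LHW in place of its partners. The stated purpose of the series was to find genes downstream of LHW-T5L1.

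Each array gave a log2 signal for 38310 probe sets, of which 16723 had 1 gene name here. Levels below are log2 signals as deposited, and differences are estrogen minus untreated on that scale, so a difference of 1 is 2-fold. The array medians ran from 5.28 to 6.21, and 23 background rows had a median of 4.20, near which the size of a fold is uncertain. That median was taken from replicates 1 and 2 only, so for replicate 3 arrays it is a rough guide. The median difference with estrogen was 0.02 over all probe sets and 0.01 over named genes. Labels do not say that replicates were separate cultures, so the p-values cover the spread between these arrays alone, and that spread may be technical. In bulk RNA, fewer cells of a type and less RNA per cell cannot be told apart. Genes whose groups are said below not to overlap were, apart from LHW, mostly picked by the same values. The share of all probe sets without overlap is not given, so a lack of overlap is description only.

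In the cells given estrogen, LHW, a glycosyl hydrolase gene, a pair of neprosin-domain genes, the SACL3 locus and a serine carboxypeptidase-like gene were higher. So were AT1G28070, a haloacid dehalogenase-like hydrolase gene (AT5G02230) and a small set of probe sets without gene names. In limma with the replicate number as a block, 23 of 38310 probe sets (0.06%) differed at a Benjamini-Hochberg adjusted p under 0.05. Of these, 20 rose (0.0522%) and 3 fell (0.00783%). Of the 23, 8 had 1 gene, and all 8 rose. At an unadjusted p under 0.05 there were 1171 higher and 816 lower probe sets, together 5.19% of those tested.

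LHW, the induced gene, had levels of 10.72, 11.05 and 11.24 on the estrogen arrays and 8.72, 8.60 and 8.14 on the untreated arrays, in the order of replicates 1 to 3. The groups did not overlap, and the gap was narrowest in pair 1 and widest in pair 3. LHW rose 5.73-fold (2.52 on the log2 scale, SE 0.21, n = 3 per group, limma adjusted p = 0.042). At 0 h its levels were 8.60, 8.71 and 8.22, and the untreated cells at 12 h stood close to them, with a difference of -0.03 (SE 0.21). The probe set cannot separate the introduced LHW transcript from the resident one, and LHW was already well above the background median without estrogen. T5L1 was not analysed here, nor were LOG3, LOG4 and AHP6, which are reported to act downstream of the heterodimer. All 23 calls rest on the 0 h arrays as well, since the 6 arrays at 12 h alone gave 0 calls in limma (2621 at an unadjusted p under 0.05), with LHW at the same difference and an adjusted p of 0.50.

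AT4G38650, which encodes a glycosyl hydrolase of the GH10 family, whose members act on xylan, had the largest rise among genes with a name. Its levels were 9.68, 9.78 and 9.52 with estrogen and 4.01, 4.68 and 4.34 without. Every estrogen array lay far above every untreated array, and the untreated levels straddled the background median. The rise was 5.32 (SE 0.16, adjusted p = 0.00202 by limma), close to 40.1-fold, with 5.68, 5.11 and 5.18 in pairs 1 to 3. Of the 9 GH10 genes measured this was the 1 that was called. The median difference of the 9 was 0.14, and the other 8 ran from -0.28 (AT4G33860) to 0.29 (AT4G33830). AT1G10050, another member with a level near 9.1 in both groups, differed by 0.04 (SE 0.20), so in the fit members at high and at low signal both lay near 0. The median of the 9 in pair 3 was 0, and AT1G10050, AT4G33860 and AT4G33830 had exactly 0 there, which draws their means toward 0. In pairs 1 and 2 AT4G33860 differed by -0.69 and -0.16, and AT4G33830 by 0.42 and 0.44.

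**Figure D1:**
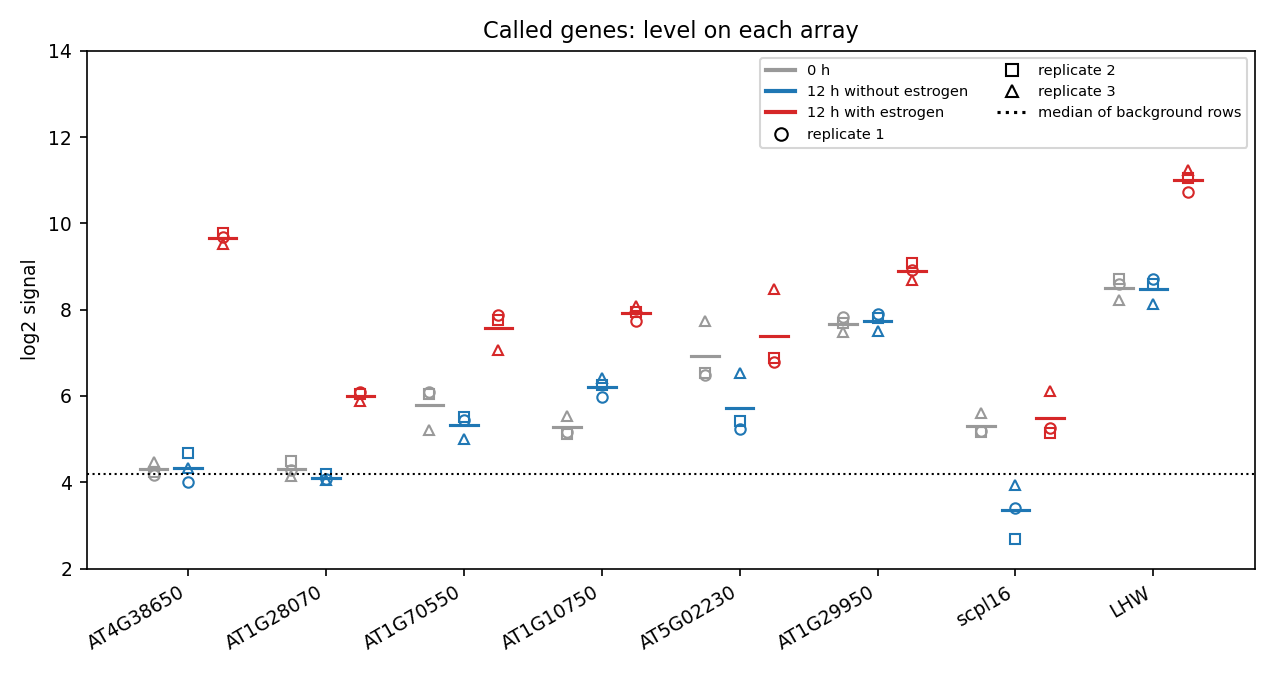
Log2 signal of the 8 called genes on each of the 9 arrays, with 0 h in grey, 12 h without estrogen in blue and 12 h with estrogen in red, a symbol per replicate number, a bar for each group mean and a dotted line at the background median of 4.20. For every gene the 3 red points lie above the 3 blue ones, which is partly built in, since the genes were called on these values. For AT5G02230 and scpl16 the untreated mean lies below the 0 h mean.

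AT1G29950, the locus of SACL3, stood at 8.91, 9.08 and 8.69 with estrogen and at 7.89, 7.80 and 7.51 without. The lowest estrogen array was above the highest untreated array. The rise was 1.16 (SE 0.09, limma adjusted p = 0.0367), and the pairs lay close together at 1.02, 1.29 and 1.18. The annotation lists its probe set under a pair of gene records with the same locus name, and it was counted as 1 gene. The other measured members of the family were not called. SACL1 (AT5G09460), at 7.10 with estrogen and 7.08 without, differed by 0.02 (SE 0.11). Its sign turned to -0.02 after quantile normalization. SACL2 (AT5G50010) differed by -0.01 (SE 0.12) at a level of 2.6, below the background median.

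AT1G70550 and AT1G10750 both encode proteins with a neprosin domain, formerly called DUF239. Other genes of this family were not listed here, so how many were measured and not called is not given. AT1G70550 had levels of 7.88, 7.75 and 7.07 with estrogen and 5.44, 5.51 and 4.99 without, a rise of 2.25 (SE 0.11, adjusted p = 0.00448). AT1G10750 had levels of 7.73, 7.95 and 8.08 with estrogen and 5.98, 6.25 and 6.42 without, a rise of 1.71 (SE 0.10, adjusted p = 0.00823). The groups did not overlap for either gene, although replicate 3 was the lowest array of each group for the former and the highest for the latter. Their pair differences had narrow ranges, 2.08 to 2.44 and 1.67 to 1.75. Between 0 h and 12 h without estrogen 50.1% of all probe sets were called, 33.5% higher and 16.5% lower. Over that time the genes moved in opposite directions, with -0.46 for AT1G70550 and 0.94 for AT1G10750 (limma adjusted p = 0.0128 and 0.000351).

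AT1G28070, for which no role is given here, had levels of 6.09, 6.04 and 5.88 with estrogen and 4.08, 4.20 and 4.05 without. The untreated arrays all lay at or below the background median, so its rise of 1.90 (SE 0.09, limma adjusted p = 0.00441) has an uncertain size. The pairs were alike at 2.01, 1.85 and 1.83.

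A serine carboxypeptidase-like gene and a haloacid dehalogenase-like hydrolase gene rose with estrogen and fell with time without it (untreated minus 0 h, -1.97 for scpl16 and -1.19 for AT5G02230, limma adjusted p = 0.000238 and 0.000365). The former, scpl16, belongs to a family of peptidases and acyltransferases. Its levels were 5.26, 5.14 and 6.11 with estrogen and 3.40, 2.69 and 3.95 without, and the untreated arrays all lay below the background median. It rose by 2.15 (SE 0.18, limma adjusted p = 0.0399). AT5G02230, the hydrolase gene, had levels of 6.80, 6.88 and 8.49 with estrogen and 5.24, 5.41 and 6.53 without. Replicate 3 was the highest array of each group for both genes, and the groups did not overlap. The rise of AT5G02230 was 1.66 (SE 0.12, limma adjusted p = 0.0306). At 0 h the mean level of scpl16 was 5.31, against 3.35 untreated and 5.50 with estrogen at 12 h. For AT5G02230 the corresponding means were 6.92, 5.73 and 7.39. Both estrogen means were thus closer to the 0 h mean than the untreated means were, a description only, since both differences share the untreated arrays.

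Calls on these 8 genes were not equally stable. Over 21 alternatives AT4G38650 was called in 17, AT1G28070 in 13, AT1G70550 in 12, AT1G10750 in 11, LHW in 9, and scpl16, AT5G02230 and AT1G29950 in 7 each. The direction of all 8 held in each alternative. Without the block the differences were the same, 14 of the 23 calls held, and 4 of the 8 genes lost theirs, which were AT1G70550 (adjusted p = 0.0859), AT1G29950 (0.193), scpl16 (0.23) and AT5G02230 (1). The fit of the 6 arrays at 12 h alone called none of the 8. Leaving out replicate 1 or replicate 2 from every group ended all 23 calls in limma, with 1297 and 1238 probe sets at an unadjusted p under 0.05, and leaving out replicate 3 kept 5 of them. Leaving out the untreated array of replicate 1, or that of replicate 2, kept 1, which was AT4G38650. Leaving out any other single array gave 5 to 22 calls.

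The other 15 called probe sets had no single gene name here, and together with the named ones the 23 held 19 distinct profiles. The largest rise was shared by 13545421, 13545543 and 13545555, which have identical values. They stood at 13.52, 13.47 and 13.91 with estrogen and 6.90, 6.79 and 8.15 without, a rise of 6.35 (SE 0.25, limma adjusted p = 0.00235). Probe sets 13545479 and 13545473 rose by 5.62 and 5.53, from untreated means of 6.43 and 6.79. On all 5 of these the untreated array of replicate 3 was the highest of its group.

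Probe set 13528308 stood at 9.21, 9.26 and 7.38 with estrogen and 2.69, 3.07 and 2.999 without. Its rise of 5.70 (SE 0.46, limma adjusted p = 0.037) started below the background median, and its estrogen array of replicate 3 was lower than the others. Further rises were 13414530 (2.85), 13356735 (2.48), 13495825 (2.18), 13520530 (1.80) and 13525956 (1.59), of which 13414530 and 13495825 also started below that median. Probe set 13448607 rose 2.46-fold. All 3 falls were a single profile, that of 13323093, 13330867 and 13331023. It stood at 3.54, 2.73 and 2.48 with estrogen and 5.05, 4.41 and 3.89 without, a fall of 1.53 on the log2 scale (a difference of -1.53, SE 0.13, limma adjusted p = 0.037) at levels around background. Without the dimmest 25% of probe sets no fall was called.

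The 3 pairs were next compared without a test. Of all probe sets, 5672 (14.8%) were higher with estrogen in 3 of 3 pairs, 3189 (8.32%) were lower in 3 of 3, and 22949 had both signs. In pair 3 the difference was exactly 0 for 11688 probe sets (30.5%), against 194 in pair 1 and 134 in pair 2. The remaining 6500 probe sets had a difference of 0 in at least 1 pair and no conflicting signs. Among probe sets that agreed in all pairs, 64.0% were higher as deposited, but 40.8% after quantile normalization and 27.8% after median centring. The balance of agreeing differences therefore depended on the scaling. Counts of large ones changed little, with 49 probe sets higher by at least 1 in each pair (0.128%) and 5 lower (0.0131%) as deposited, and 45 and 6 after either rescaling.

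Of the 49 probe sets higher by at least 1 in every pair, 15 had 1 gene, and none of the 5 lower ones did. Single pairs gave many more. In pair 1, 506 probe sets were higher and 745 lower by at least 1, in pair 2 these were 704 and 866, and in pair 3 they were 758 and 211. Pairs 1 and 2 each had more probe sets lower than higher by that much, and pair 3 had more higher than lower.

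**Figure D2:**
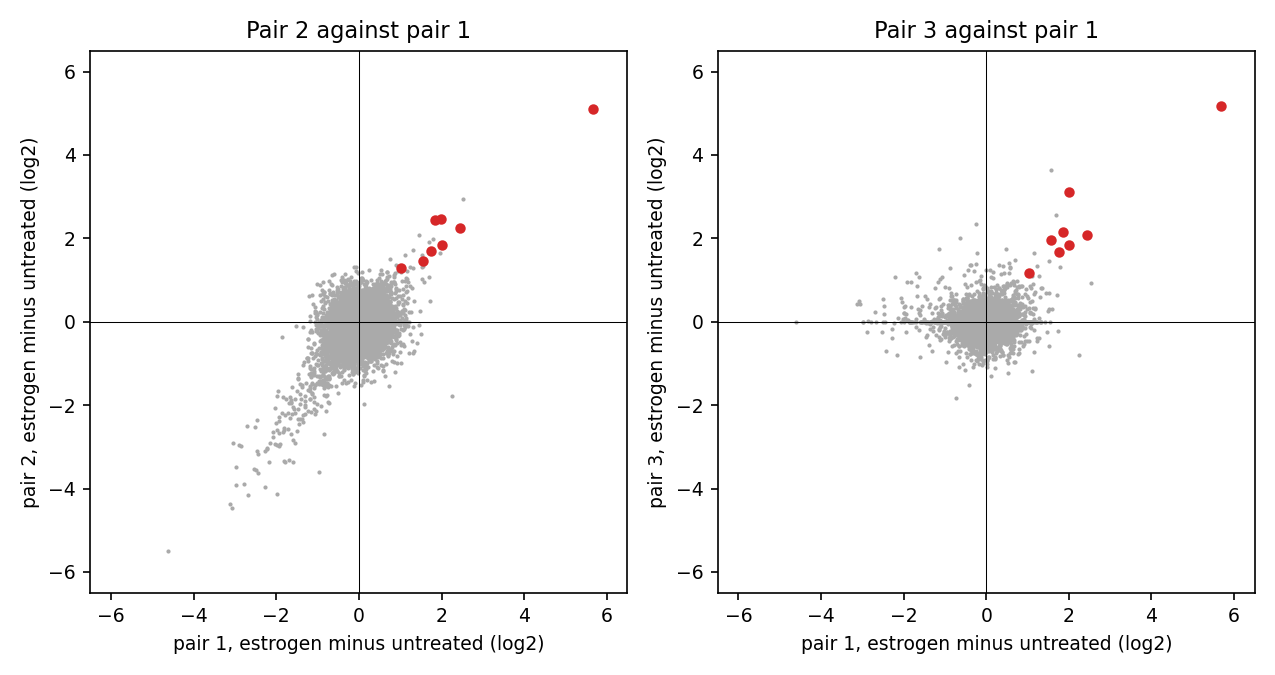
Difference with estrogen on the log2 scale in pair 2 (left) and pair 3 (right) against pair 1, for each probe set with 1 gene (grey) and the 8 called genes (red). A tail of genes is lower in both pairs 1 and 2, while in pair 3 the same range of pair 1 lies around 0, and the called genes are high in all pairs.

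Across all probe sets the differences of pairs 1 and 2 correlated at r = 0.353, those of pairs 1 and 3 at 0.090 and those of pairs 2 and 3 at 0.095. Probe sets are not independent replicates, and the members of a pair share a replicate number. The agreement of pairs 1 and 2 grew with signal, from r = 0.082 in the dimmest of 5 equal groups of probe sets by mean signal to 0.760 in the brightest. In the brightest group pairs 1 and 3 reached 0.504 and pairs 2 and 3 reached 0.412, but without the called probe sets, whose calls required agreement, these values were 0.145 and 0.087, against 0.632 for pairs 1 and 2. The agreement of pair 3 with the others in bright probe sets thus came mostly from a few large rises. The share of probe sets with a pair 3 difference of exactly 0 was 59.9% in the dimmest group and 9.98% in the brightest.

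**Figure D3:**
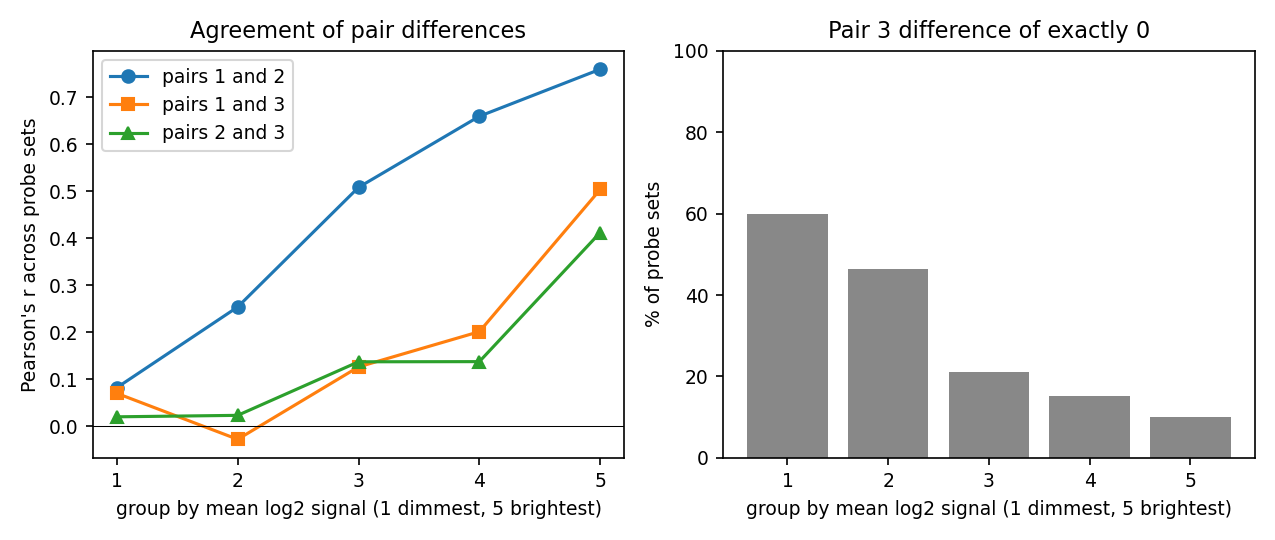
Left, Pearson's r between the differences of each 2 pairs across probe sets, in 5 equal groups by mean log2 signal; right, percent of probe sets in each group whose pair 3 difference is exactly 0. The r of pairs 1 and 2 goes from 0.082 to 0.760, and the share at 0 drops from 59.9% to 9.98%.

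Named genes were then ranked by their smallest pair difference, among those with the same sign in all pairs. The higher group also had to lie above the background median in replicates 1 and 2. Genes such as scpl16 and AT1G28070 passed that filter only through their estrogen arrays. The 12 highest held 7 of the called genes and 5 that were not called. AT5G08350, a GRAM-domain protein gene, had pair differences of 1.95, 1.66 and 1.82 (mean 1.81, limma adjusted p = 0.152). AT1G52415 had 1.80, 1.99 and 1.33 (adjusted p = 0.078). Both had groups that did not overlap, with AT5G08350 at 6.68 to 7.39 against 4.73 to 5.58.

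AT2G47560, a RING-finger gene of the ATL ubiquitin ligase family, showed uneven pairs. Its levels were 9.50, 9.45 and 8.58 with estrogen and 7.94, 7.97 and 4.94 without. The untreated array of replicate 3 stood 3 units below its group, so the pair differences were 1.57, 1.48 and 3.64, with a mean of 2.23 (SE 0.45, limma adjusted p = 0.612). Replicate 3 was the lowest array at 0 h too, at 3.91 against 6.80 and 6.57. AT5G67390 differed by 1.29 (adjusted p = 0.514) and AT2G41800, which encodes a cell wall protein with a DUF642 domain, by 1.28 (adjusted p = 0.429). Both of these had already increased with time in untreated cells, by 2.84 and 2.19 (limma adjusted p = 0.000199 and 0.000414), and were higher still with estrogen.

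None of the 12 genes lowest by the same ranking was called. AT4G16563, an aspartyl protease gene, had the largest smallest-pair difference. It stood at 5.77, 5.57 and 5.86 with estrogen and 6.75, 6.48 and 6.83 without, and no estrogen array reached the lowest untreated one. The pair differences of AT4G16563 were -0.98, -0.91 and -0.97 (limma adjusted p = 0.514). AT3G22800, which encodes a leucine-rich repeat extensin of the cell wall, differed by -0.85 (SE 0.11, adjusted p = 0.162), at 5.71 to 6.05 against 6.44 to 7.14.

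Other members of the 12 were as follows. AT1G77640 and AT1G44830, both of the ERF family, differed by -1.93 and -1.33. The MADS-box gene AGL78 differed by -2.10 and bZIP75 by -1.13. AT1G77640 had pair differences of -1.60, -3.36 and -0.84 and overlapping groups. NAI1, a basic helix-loop-helix gene needed to form endoplasmic reticulum bodies, had -0.50, -0.87 and -0.52 (mean -0.63, SE 0.14, limma adjusted p = 0.667). The expansin-like gene EXLA1 differed by -1.42 (SE 0.39, adjusted p = 0.865), with -1.38, -2.33 and -0.56 by pair, and its groups overlapped. The remaining genes were AT5G38700 (-2.26), AT2G20835 (-0.99), AT3G14870 (-0.77) and AT1G61255 (-0.53).

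**Figure D4:**
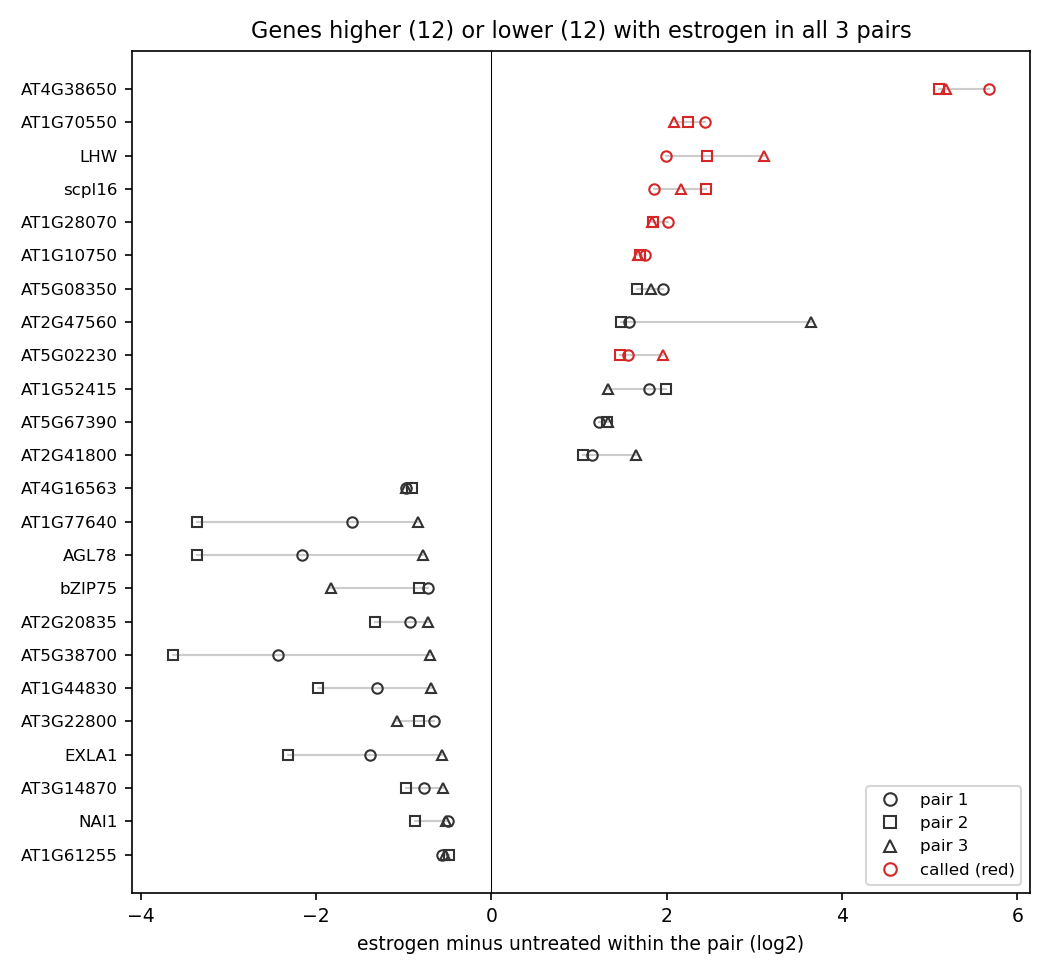
Difference with estrogen on the log2 scale within pairs 1, 2 and 3 for the 12 genes highest and the 12 lowest by their smallest pair difference, with called genes in red. The pairs of AT1G10750 and AT4G16563 nearly coincide, while those of AT2G47560 and AT1G77640 spread over more than 2 units.

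Genes that moved by at least 1 in both pairs 1 and 2 were followed into pair 3, among 9977 named genes whose higher group was above the background median in those replicates. A gene could thus enter through the group where it was high, and the lower group was below that median for 8 of the 25 higher and 30 of the 121 lower genes found. Of 25 genes higher in both, pair 3 was higher for 24 (14 of them by at least 1), at 0 for 1 and lower for none. Of 121 genes lower in both, pair 3 was lower for 32, none by as much as 1, at 0 for 32 and higher for 57. Over all 9977 genes, pair 3 was higher by at least 1 for 46 and lower by at least 1 for 9. The medians of the 121 genes were -1.60, -2.18 and 0 in pairs 1, 2 and 3. With both groups required to be above the median, a choice made after seeing the data, pair 3 was higher for 16 of 17 higher genes, and lower for 25 of 91 lower genes, at 0 for 18 and higher for 48. These counts describe the chosen genes. Pair 3 is 1 array per group, so its difference from the others was not tested.

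The following examples were picked after their values were seen. Among the 25 higher genes, AT3G54400, an aspartyl protease gene, differed by 1.52, 1.31 and 0.68, AT5G14650, of the polygalacturonase family, by 1.70, 1.92 and 0.64, and AT3G27400, a pectate lyase-like gene, by 1.52, 1.60 and 0.30. The serine carboxypeptidase-like gene scpl46 differed by 1.45, 2.09 and 0.68 (limma adjusted p = 0.444). SCPL45 differed by 1.03 and 1.20 and then by 0.

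Among the 121 lower genes, STZ, the stress-responsive zinc finger repressor also called ZAT10, stood at 8.79, 7.54 and 8.39 with estrogen and 10.49, 10.85 and 7.23 without. The order of the groups was thus reversed in replicate 3, with differences of -1.70, -3.31 and 1.16. The calmodulin-like genes CML38 (-2.22, -3.04 and 1.08) and CML23 (-2.03, -2.93 and 0.47) showed the same change of sign. PUB22, a ubiquitin ligase gene of the immune response, had -1.92, -2.68 and 0.05. AT2G30020, which encodes a protein phosphatase that acts on MAP kinases, had -2.23, -3.06 and -0.04. For AT1G19210, an ERF family gene that passed the filter only through its untreated arrays, the untreated arrays read 6.56, 6.85 and 2.17 and the estrogen arrays 1.94, 1.36 and 2.17, so its replicate 3 arrays held equal values. In these genes the untreated array of replicate 3 was low, as low as or below the estrogen array except for AT2G30020, where it was above by 0.04.

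With replicates 1 and 2 alone and no block, an alternative chosen after seeing the data, 69 probe sets were called, 30 higher and 39 lower. All 30 higher ones kept their sign in pair 3. Of the 39 lower ones, 14 kept it, 3 were at 0 and 22 had the opposite sign. Some of the 30 and some of the 39 have values identical to another in the same group, so distinct profiles are fewer than these counts. Named genes among the 39 included CML38 (-2.63, SE 0.21, limma adjusted p = 0.0451), PUB22 (-2.30, SE 0.20, adjusted p = 0.0491) and AT3G02840 (-2.92, SE 0.12, adjusted p = 0.013). In the fit of all arrays none of these passed.

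Gene lists were described by their counts and medians, beside the median of 0.02 over all probe sets. Of 371 genes in 25 lists, 4 were called, namely LHW, AT4G38650, AT1G29950 and scpl16. The calls over all features were 0.06% of all probe sets and 8 of 16549 named genes. In 15 lists the median of pair 3 was 0. The pair 3 difference was exactly 0 for 42.7% of the named genes, which draws list medians toward 0. Among 3 members of the LHW and TMO5 families, 1 rose, which was LHW itself. The relatives T5L3 (AT2G41130) and T5L2 (AT3G56770) differed by 0.21 (SE 0.16) and -0.04 (SE 0.08), and T5L3 lay below the background median on all 6 arrays. Of 4 genes reported downstream of LHW, AT4G38650 and the SACL3 locus rose, and DOF2.1 (AT2G28510, -0.08, SE 0.27) and BGLU44 (-0.06, SE 0.20) did not pass. That list was probably drawn in part from this experiment and is not independent evidence.

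None of 8 cytokinin genes passed. All 8 are response regulators of the ARR family, and all but RR21 had group means below the background median. RR21 stood at 7.08 with estrogen and 7.11 without, and the largest difference among them was 0.22 (RR23). None of 16 auxin genes passed. IAA30, of the Aux/IAA repressor family, differed by 1.79 (SE 0.26, limma adjusted p = 0.232), with 1.70, 1.08 and 2.57 by pair. Its levels were 3.91, 3.16 and 5.35 with estrogen and 2.21, 2.07 and 2.78 without, so 5 of its 6 arrays lay below the background median. The auxin-conjugating gene GH3.3, bright at 8.95 to 11.53, differed by -0.41 (SE 0.29).

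Vascular genes were few on this array under a single name. None of 3 procambium and cambium genes passed, where CLE44, for a peptide that restrains xylem differentiation, was at 9.51 with estrogen and 9.78 without (-0.26, SE 0.13), and PHV, an HD-ZIP III factor gene, differed by -0.18. None of 5 xylem and secondary wall genes passed. The xylan synthesis gene GUT2, also called IRX10, stood between 8.45 and 8.998 on all 6 arrays, and IRX15 lay below the background median. Of the phloem genes OPS and CLE45, the former was at 3.97 to 4.47 and the latter at 1.92 to 2.80. The root hair gene EXPA7 was at 3.50 to 4.23 and EXPA18 at 2.94 to 3.50, and the leaf gene RCA was at 4.43 to 5.32. By the higher group mean over replicates 1 and 2, 3 of 5 xylem and secondary wall genes lay above the background median. So did 1 of 2 phloem genes, 1 of the 3 genes EXPA7, EXPA18 and RCA, and 2 of 3 procambium and cambium genes.

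Among wall and secreted enzyme families, 1 of 32 serine carboxypeptidase-like genes rose and the list median was -0.01. XTH18, of the xyloglucan-modifying enzymes, differed by -1.31 (SE 0.42, limma adjusted p = 0.904) with -0.85, -2.68 and -0.40 by pair. None of the 10 XTH genes passed, and their median was -0.18. Of 23 expansins none passed (median -0.05), of 4 pectin enzymes none (median -0.02) and of 24 beta-glucosidases none (median -0.03). Above the background median, by the higher group mean over replicates 1 and 2, were 3 of the XTH genes and 13 of the expansins. So were 14 of the serine carboxypeptidase-like genes, 9 of the beta-glucosidases and none of the pectin enzymes. The 4 pectin enzymes were matched by name, and AT5G14650 and AT3G27400, given above, were not among them. BGLU15, a beta-glucosidase gene, stood at 5.12, 4.74 and 5.08 with estrogen and 3.78, 4.24 and 4.28 without. It differed by 0.88 (SE 0.19, limma adjusted p = 0.645), with no overlap between groups.

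Stress and housekeeping lists held no called gene either. The median over 16 WRKY, JAZ and wound response genes was -0.16, -0.26 and 0.001 in pairs 1, 2 and 3, and -0.19 in the fit. WRKY47, bright at 10.12 to 10.61, differed by -0.24 (SE 0.09, limma adjusted p = 0.947). Medians were -0.03 over 95 detoxification genes, -0.13 over 16 SWEET sugar carriers, 0.09 over 10 cell cycle genes, 0.02 over 11 autophagy genes, 0.05 over 9 other basic helix-loop-helix genes and -0.03 over 3 heat shock genes. By the higher group mean over replicates 1 and 2, 35 of the detoxification and 3 of the SWEET genes lay above the background median. So did all 10 cell cycle, 10 autophagy, 5 basic helix-loop-helix and 2 heat shock genes. The pair 3 median was exactly 0 for the detoxification, SWEET, basic helix-loop-helix and heat shock lists. The 63 plastid-encoded genes had a median of 0.02 and ran from -0.08 to 0.24. The reference genes AT2G28390, PEX4 and AT4G34270 differed by 0.04, 0.05 and 0.02, and each turned slightly negative after median centring.

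**Figure D5:**
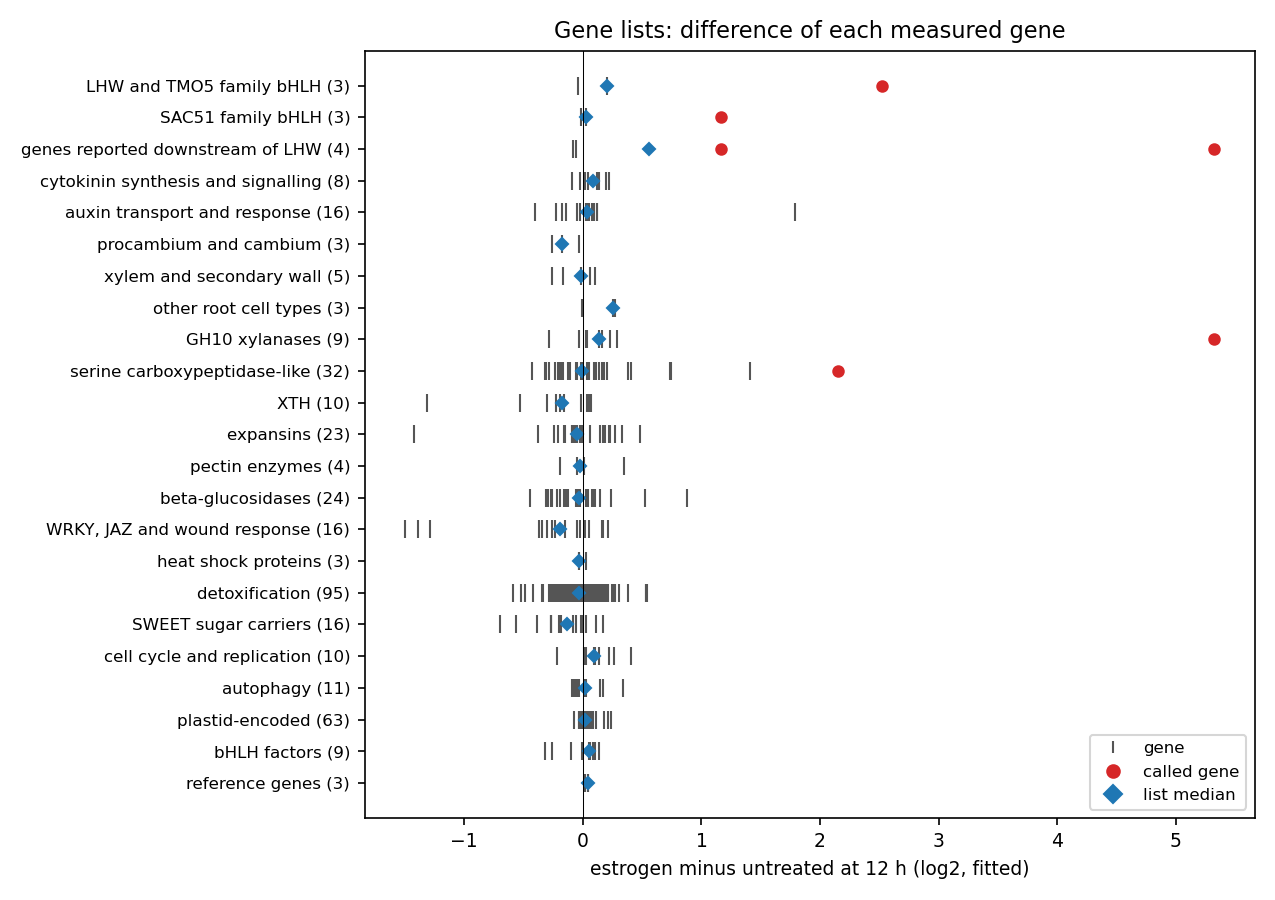
Fitted difference with estrogen on the log2 scale for each measured gene (ticks) of the 23 lists with at least 3 genes, with the list median as a blue diamond and called genes in red; the number of genes stands beside each list name. The list medians run from -0.19 (WRKY, JAZ and wound response) to 0.55 (genes reported downstream of LHW), and the called genes are LHW, AT4G38650, AT1G29950 and scpl16.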

How the data were processed

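Total RNA of 9 samples (3 groups of 3) was hybridised to Affymetrix arrays, 1 per sample, after sense-strand labelling, per the labels' protocols. The authors deposited log2 signals for each probe set. Per the submitters' processing notes, Affymetrix Expression Console 1.3 was used. Summarisation and normalization between arrays are not given in the sources used here. Arrays give no read depth, so their number limits the precision. Of 38506 rows, 38310 had values on all 9 arrays. The other 196 were control rows, 98 filled on replicates 1 and 2 only and 98 on replicate 3 only. The background rows (median 4.20, range 1.08 to 8.20) were present on replicates 1 and 2, where 13187 probe sets had a mean below that median.

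The platform annotation gave 1 gene for 16723 probe sets, several for 758 and none for 20829. Of the first, 16575 were found in a RefSeq table (TAIR10.1), used for names only. The probe set with the highest mean stood for a gene (16549 genes), and 5529 probe sets repeated the values of an earlier one. The table holds no descriptions, so gene functions are general background.

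Groups came from the labels. A model with a mean per group and the replicate number as a block was fitted to 9 arrays with limma 3.58.1 (lmFit, eBayes, 4 residual and 2.01 prior degrees of freedom) in R 4.3.3, with two-sided tests, Benjamini-Hochberg adjustment over 38310 probe sets and calls at an adjusted p under 0.05. The same fit gave 19186 calls (50.1%) for untreated cells at 12 h against 0 h, used only as values beside single genes. After group means were removed, arrays with the same number correlated at 0.173 to 0.616 and those with unlike numbers at -0.46 to 0.28. Arrays of replicates 1 and 2 also correlated across numbers (0.156 to 0.277). The ranges overlap, so this check cannot show which arrays are true pairs. The numbers in the titles were taken as pairs. On simulated data for this comparison with 38310 features, the fit recovered 52% of 100 changes of 1 and 90% of 100 changes of 2 on the log2 scale, with 8 false calls. Whether the simulated data shared the zeros and low agreement of pair 3 is not given, so these rates may not hold for the real arrays. Plots used Python 3.11.15 and matplotlib 3.10.9.

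The members, gene lists and tests were chosen with earlier results of these data known. Named were LHW, each called probe set, the 12 genes highest and 12 lowest by their smallest pair difference (same sign in 3 pairs, higher group above background), from each list of at least 3 genes up to 3 with the lowest p, and all SACL and GH10 genes. Genes of pairs 1 and 2, further list members and the genes below were picked after their values were seen. Alternatives were the fit without the block, the 6 arrays at 12 h, quantile normalization, median centring, removal of the dimmest 25% of probe sets, distinct profiles, probe sets with 1 gene, array weights, a robust prior with an intensity trend, an adjusted p under 0.01 and omission of arrays. Lists of neprosin-domain and ERF genes matched no names. No sequence is shown, since none was given for these genes.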

Additional observations from a re-analysis of the deposited data

How the results depend on the processing

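The 12 h comparison called 23 probe sets (20 higher, 3 lower). Without the replicate block, that is without the pairing, it called 15 (15 higher, 0 lower), 14 of them shared. The 6 arrays at 12 h alone gave 0 calls (0 higher, 0 lower) and LHW at 2.52 (adjusted p = 0.50). Falls numbered 0 without the dimmest 25% and 1 with distinct profiles, since the 3 falls share a profile. Probe sets with 1 gene gave 12 (12 higher, 0 lower), an adjusted p under 0.01 gave 10 (10 higher, 0 lower), a trend with a robust prior 37 (33 higher), array weights 57 (54 higher) and, chosen after seeing the data, replicates 1 and 2 without the block 69 (39 lower). Quantile normalization and centring gave 22 each, all shared. Omission of arrays gave 0 to 22 calls (0 to 19 higher, 0 to 3 lower) and LHW at 2.23 to 2.78, with adjusted p 0.0495 to 0.801. Agreement by at least 1 in each pair was 49 higher and 5 lower; without the dimmest 25% 1 was lower, with distinct profiles 3, with 1 gene 15 were higher and 0 lower, at 0.5 these were 245 and 55, and in pairs 1 and 2 alone 104 and 293. The cause of these shifts was not tested. Reversals concerned genes near 0 and not called. Quantile normalization gave AT5G09460 -0.0235. Centring gave AT5G09460 -0.0299, AT1G10050 -0.0169, AT4G33820 -0.0232, Hsp70-2 -0.0265, AT2G28390 -0.00902, PEX4 -0.00574 and AT4G34270 -0.0355, and array weights gave AT5G50010 0.000995. With arrays omitted, the ranges were -0.0885 to 0.188 for AT1G10050, -0.0139 to 0.0944 for AT2G28390, -0.26 to 0.209 for AT2G28510, -0.0968 to 0.0312 for AT3G56770, -0.222 to 0.404 for AT4G33810, -0.0164 to 0.0829 for AT4G33820, -0.0544 to 0.24 for AT4G33840, -0.187 to 0.148 for AT4G38300, -0.0709 to 0.0758 for AT5G09460, -0.135 to 0.0923 for AT5G50010, -0.154 to 0.0813 for ATHSP22.0, -0.174 to 0.0836 for CLE41, -0.0256 to 0.0224 for EXPA18, -0.0836 to 0.00856 for HSP93-III, -0.356 to 0.315 for Hsp70-2, -0.0251 to 0.0917 for PEX4 and -0.133 to 0.0599 for PMEPCRF. Signals near background limit the fold sizes.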

Other observations

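PYK10 is the main beta-glucosidase of endoplasmic reticulum bodies, and its gene depends on NAI1. With estrogen PYK10 was lower in every pair, as were 8.32% of all probe sets. It stood at 10.37, 10.30 and 9.76 with estrogen and 10.77, 10.73 and 10.26 without, and the highest estrogen array lay above the lowest untreated one. The pair differences were -0.40, -0.43 and -0.50 (mean -0.44, SE 0.11, limma adjusted p = 0.819), so it was not called, as NAI1 was not. A link between PYK10 and NAI1 in these cells was not tested. With time in untreated cells PYK10 differed by -1.36 from its 0 h level (adjusted p = 0.000156).

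Among the 25 named genes higher by at least 1 in pairs 1 and 2, AT5G66440 was not called. Its levels were 7.004, 6.98 and 5.67 with estrogen and 4.47, 4.03 and 4.74 without, with no overlap and pair differences of 2.53, 2.95 and 0.92 (limma adjusted p = 0.477). The glucosyltransferase gene UGT71B5 was higher in each pair, as were 14.8% of all probe sets. It differed by 0.46, 0.29 and 0.84 (mean 0.53, SE 0.12, limma adjusted p = 0.703). UGT84B2 and UGT74B1 of the same list differed by -0.49 and -0.42. Of the 95 detoxification genes in that list, 6 were higher and 7 lower in each pair. The aurora kinase gene AUR1, which acts in mitosis, differed by 0.46, 0.72 and 0.04 (adjusted p = 0.947).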
